A study of Homo sapiens with 4 samples.

Results

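Haem synthesis and erythroid iron uptake were followed through the transcripts of 9 genes, ALAS2, ALAD, UROS, UROD, CPOX, PPOX, FECH, SLC25A37 and TFRC, picked by name from the 23615 genes of the deposited table. RNA-seq was done on K562 cells, an established human leukaemia line that carries BCR-ABL and makes embryonic and fetal globins. There were 2 samples treated with 5 µM clofarabine (medium with 0.005% DMSO), here C0 and C1, and 2 samples treated with DMSO, V0 and V1, all taken at 3 h. Clofarabine is a deoxyadenosine analogue that blocks ribonucleotide reductase and DNA polymerases. The table marks its conditions only as C and V, read here as clofarabine and vehicle, and with the letters read the other way all signs would turn. Since nothing in the labels ties the samples to separate cultures, the p-values reflect sample-to-sample spread here that could be technical.

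Haem synthesis begins in the mitochondrion, where ALAS2, the erythroid isoform of 5-aminolevulinate synthase, joins glycine to succinyl-CoA. The middle steps run in the cytosol, with ALAD, UROS and UROD among their enzymes, and the last ones return to the mitochondrion with CPOX, PPOX and FECH, the enzyme that places iron in the ring. The iron comes from transferrin, which erythroid cells take up in bulk through TFRC, transferrin receptor 1, and SLC25A37, mitoferrin-1, carries it across the inner mitochondrial membrane. GATA1 drives many of these genes in erythroid cells, and iron regulatory proteins bind hairpins in the UTRs of ALAS2 and TFRC, holding back translation of ALAS2 mRNA and protecting TFRC mRNA from decay when iron is short.

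Those hairpins are shown because the count of TFRC fragments can follow the iron-dependent decay of its mRNA, while a count of ALAS2 fragments does not read its translation. The search asked for a C, a stem of 5 bases, the loop CAGTGN and 5 bases that pair with the stem at all 5 positions (G with T allowed), in 1 coding transcript per gene on the transcript's strand. Among the 9 genes, the pattern lay in a UTR of 2, ALAS2 (1 match, 5′ UTR) and TFRC (4 matches, 3′ UTR). A hairpin that departs from this pattern would be missed. The matches therefore need not be all the hairpins of a gene, and a gene without a match may still hold one. Of 19555 genes searched in GENCODE, 0.107% held it in the 5′ UTR and 0.532% in the 3′ UTR. The sequences come from the GENCODE transcripts (GRCh38), in DNA letters from 5′ to 3′ along the mRNA, with the hairpin loop in capitals.
ALAS2 5′ UTR, chrX:55030942-55030968, minus strand: tcgttcgtcctCAGTGCagggcaacag
TFRC 3′ UTR, chr3:196050980-196051006, minus strand: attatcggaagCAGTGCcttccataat
TFRC 3′ UTR, chr3:196050576-196050602, minus strand: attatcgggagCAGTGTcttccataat
TFRC 3′ UTR, chr3:196050511-196050537, minus strand: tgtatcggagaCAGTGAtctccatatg
TFRC 3′ UTR, chr3:196050464-196050490, minus strand: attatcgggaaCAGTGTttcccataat
Each of the 5 lies within a single exon.

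The promoters of ALAS2 and CPOX are shown because GATA1 transcripts were called lower after clofarabine, while those of ALAS2 and CPOX were not called. The GATA1 call, described further on, was lost under 7 of 17 alternative settings. The differences between GATA1 and ALAS2 or CPOX were not tested. RefSeq's table (GRCh38.p14) held promoters for 7 of the 9 genes and none for UROS and SLC25A37. The 250 bases before each start were searched on both strands for GATAA or GATAG preceded by A or T, the GATA motif, and no matches overlapped. ALAS2 had 1 match, starting 127 bases before the start, and CPOX had 2, at 207 and 125 bases. ALAD and PPOX each had 1 match in one of their 2 promoters, at 68 and 63 bases, and none in the other, and UROD, FECH and TFRC had none. The transcripts of ALAD and PPOX were not called either, and their promoters are not shown. Of 35116 promoters of this length, 22.3% held at least 1 match and 4.96% at least 2. A match describes letters and not a bound site. Matches are in capitals.
ALAS2, chrX:55030978-55031227, minus strand: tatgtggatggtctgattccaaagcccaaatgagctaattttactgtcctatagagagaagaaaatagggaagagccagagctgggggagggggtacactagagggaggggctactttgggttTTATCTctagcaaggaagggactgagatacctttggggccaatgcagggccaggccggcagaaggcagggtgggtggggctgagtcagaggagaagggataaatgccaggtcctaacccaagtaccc
CPOX, chr3:98593612-98593861, minus strand: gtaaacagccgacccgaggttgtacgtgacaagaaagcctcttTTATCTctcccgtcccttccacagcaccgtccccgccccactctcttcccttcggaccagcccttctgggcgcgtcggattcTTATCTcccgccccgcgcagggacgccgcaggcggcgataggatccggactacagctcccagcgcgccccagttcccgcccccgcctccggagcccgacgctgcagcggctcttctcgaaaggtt

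Library totals ran from 8370550 to 23888755 fragments, and the 9 genes together took 0.287% and 0.277% of the fragments in C0 and C1, against 0.299% and 0.297% in V0 and V1. All 9 passed the filter on low counts, with between 282 and 31023 fragments per gene and library. The erythroid markers HBG1, HBG2, HBE1, HBZ, GATA1, KLF1 and TFRC all passed the same filter, while CD8A and MS4A1 of T and B cells had 0 fragments in all 4 libraries, CD3E at most 4 and ITGAM at most 3. CD3D, a gene of the CD3 complex of T cells, was an exception with 212 and 441 fragments in C0 and C1 and 147 and 175 in V0 and V1. In bulk RNA, fewer cells of a kind and less RNA per cell cannot be told apart.

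After 3 h of clofarabine none of the 9 transcripts passed the test, and each stood close to its DMSO level. By edgeR's quasi-likelihood test over 11761 genes, 0 of 9 had an adjusted p under 0.05 and 0 of 9 an unadjusted p under 0.05, and DESeq2 and limma-voom also called 0. Over all tested genes 2.57% were called in either direction (1.54% higher, 1.03% lower, with falls in the majority on the FPKM scales, with library sizes alone and without V1), and 14.2% had an unadjusted p under 0.05. The log2 fold changes of the 9, clofarabine minus DMSO, ran from −0.10 (ALAD) to 0.063 (PPOX) with a median of −0.049, beside a median of 0.0020 over all tested genes. Leaving out C1 put the median of the 9 at −0.075, and scaling by library size in place of TMM put it at −0.084 and moved the median of all genes to −0.035. Their median size was 0.052, beside 0.117 over all tested genes and 0.41 over the called ones. The 9 lay between percentiles 52.5 and 98.4 of mean FPKM, and genes matched to them for level were not compared. Of the 9, 7 had a negative value, as did 49.4% of all tested genes. The 95% intervals of the 9 changes lay between 0.799-fold (lower bound of ALAD) and 1.18-fold (upper bound of PPOX).

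**Figure D1:**
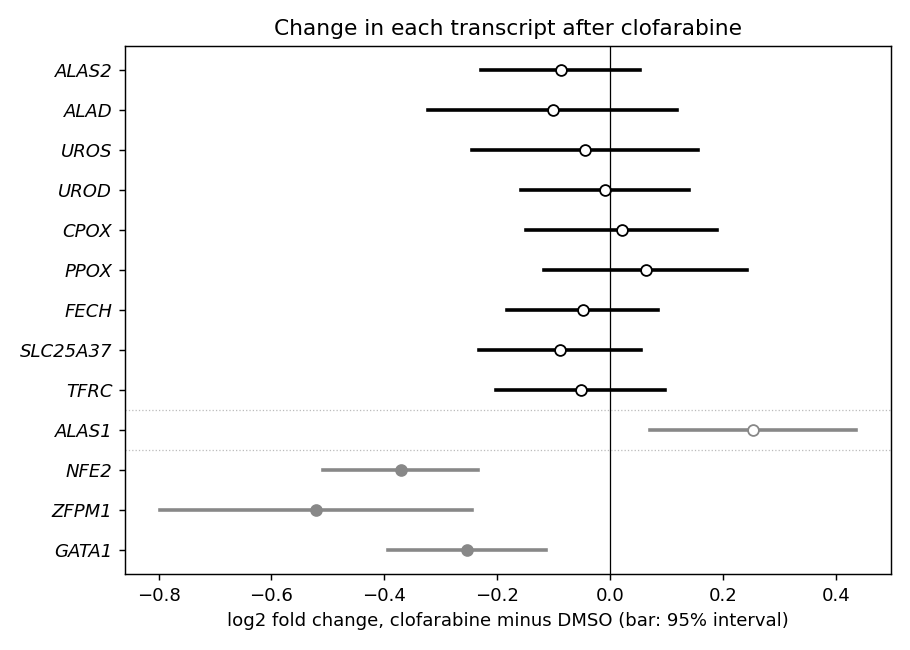
Log2 fold change (clofarabine minus DMSO, horizontal axis) of each transcript with its 95% interval from edgeR's quasi-likelihood fit on 2 libraries per group; filled points have an adjusted p under 0.05. The 9 genes of haem synthesis and iron uptake (black) all have intervals that include 0, ALAS1 (grey, middle) was not called, and NFE2, ZFPM1 and GATA1 (grey, bottom) fell.

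ALAS2, which sets the pace of haem synthesis in erythroid cells, had 154 and 164 FPKM (the authors' fragments per kilobase, scaled to library depth) in C0 and C1, against 163 and 176 FPKM in V0 and V1. C0 was the lowest and V1 the highest of the 4, and C1 lay above V0, so that the groups overlapped. The fold change was 0.941 (95% interval 0.853 to 1.04, edgeR adjusted p = 0.636). APEX2, a DNA repair gene, shares exonic bases with ALAS2 on the opposite strand in GENCODE, and whether the counting used strand is not stated, so ALAS2 may hold some of its fragments. APEX2 stood far lower, at 20.9 and 20.6 FPKM in C0 and C1, against 20.3 and 19.4 FPKM in V0 and V1.

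ALAD, which condenses 2 molecules of 5-aminolevulinate into porphobilinogen, was the lowest of the 9 per length, with 10.2 and 10.8 FPKM in C0 and C1, against 10.9 and 11.6 FPKM in V0 and V1. The clofarabine libraries both lay under the DMSO libraries. With 282 to 763 fragments per library its fold change was also the least precisely measured, 0.932 (95% interval 0.799 to 1.09, edgeR adjusted p = 0.748). UROS, which closes the tetrapyrrole ring, had 32.4 and 35.2 FPKM in C0 and C1, against 34.9 and 35.1 FPKM in V0 and V1. The clofarabine libraries lay on either side of both DMSO libraries, and the fold change was 0.970 (95% interval 0.844 to 1.11, edgeR adjusted p = 0.906).

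UROD, which decarboxylates uroporphyrinogen, had the highest level per length, with 460.2 and 509.9 FPKM in C0 and C1, against 471 and 507 FPKM in V0 and V1. Both DMSO libraries lay between the clofarabine libraries. Its fold change was the closest to 1 among the 9, at 0.994 (95% interval 0.897 to 1.10, edgeR adjusted p = 0.980). UROD stood between 43.3 and 47.3 times above ALAD in FPKM within each library.

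CPOX, the first mitochondrial enzyme of the late steps, had 29.6 and 27.4 FPKM in C0 and C1, against 28.9 and 27.2 FPKM in V0 and V1. The groups overlapped, and the fold change was 1.01 (95% interval 0.902 to 1.14, edgeR adjusted p = 0.949). GENCODE also gives AC021660.3 exonic bases in common with CPOX on the same strand, a name with no values here. PPOX, which oxidises protoporphyrinogen, had 34.8 and 34.6 FPKM in C0 and C1, against 32.6 and 33.8 FPKM in V0 and V1. It was the single gene of the 9 whose clofarabine libraries both lay above the DMSO libraries, with a fold change of 1.04 (95% interval 0.922 to 1.18, edgeR adjusted p = 0.824). B4GALT3 shares exonic bases with PPOX on the opposite strand, at 25.6 and 27.3 FPKM in C0 and C1, against 27.8 and 29.1 FPKM in V0 and V1, so the share of fragments given to PPOX is uncertain.

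FECH, the ferrochelatase, had 36.0 and 35.0 FPKM in C0 and C1, against 36.8 and 36.6 FPKM in V0 and V1. The clofarabine libraries both lay under the DMSO libraries, by little. Its fold change of 0.967 had the smallest SE of the 9 (0.064 on the log2 scale; 95% interval 0.882 to 1.06, edgeR adjusted p = 0.813).

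On the iron side, TFRC had 281 and 267 FPKM in C0 and C1, against 293 and 277 FPKM in V0 and V1. C0 lay between the DMSO libraries and C1 under both. With 12424 to 31023 fragments per library it was the most deeply counted of the 9, and its fold change was 0.964 (95% interval 0.870 to 1.07, edgeR adjusted p = 0.823). SLC25A37 had 77.7 and 75.9 FPKM in C0 and C1, against 83.9 and 79.6 FPKM in V0 and V1. Both clofarabine libraries lay under both DMSO libraries, with a fold change of 0.940 (95% interval 0.851 to 1.04, edgeR adjusted p = 0.638).

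**Figure D2:**
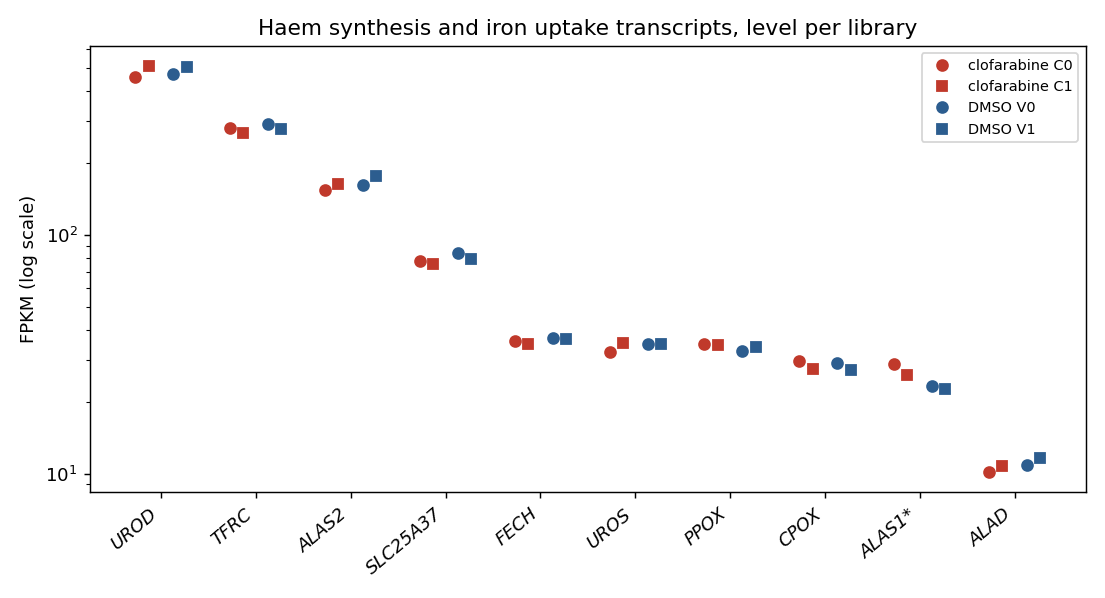
FPKM on a log scale for each transcript in the clofarabine libraries C0 and C1 (red, left) and the DMSO libraries V0 and V1 (blue, right); the asterisk marks ALAS1, which is not one of the 9. UROD is highest and ALAD lowest of the 9 in each library, and the spread between libraries of 1 gene is small beside the spread between genes.

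Per length, the order UROD, TFRC, ALAS2, SLC25A37 held in all 4 libraries, as did CPOX in place 8 and ALAD in place 9. FECH, UROS and PPOX filled places 5 to 7, all between 32.4 and 36.8 FPKM. FECH lay above PPOX in all 4 libraries with no overlap of their ranges, while UROS changed place between libraries and overlapped both. UROD stood at percentile 98.4 of mean FPKM among all tested genes and ALAD at percentile 52.5.

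On the scale of CPM (fragments per library total, with TMM scaling), clofarabine and DMSO libraries stood fully apart in 4 of the 9 genes, with clofarabine lower in ALAD, FECH and SLC25A37 and higher in PPOX. Over all tested genes 43.2% stood apart (21.3% with clofarabine lower and 22.0% higher), so the share among the 9 is near the background. In 5 of the 9 the larger gap between libraries of 1 group exceeded the change between groups. The share of all tested genes with this property was not computed. In log2 CPM, C1 minus C0 ran from −0.11 (CPOX) to 0.15 (UROD), and V1 minus V0 from −0.084 (CPOX) to 0.12 (ALAS2). C1 stood above C0 and V1 above V0 in UROD, UROS, ALAS2 and ALAD, and under them in CPOX, TFRC, SLC25A37 and FECH. Thus 8 of the 9 had gaps of the same sign in both groups, and the share of all tested genes with such gaps was not computed. Over all tested genes C0 minus C1 and V0 minus V1 had a correlation of −0.0038. It weighs genes of low and high counts alike, and cannot decide whether same-numbered libraries are paired. UROS and UROD are short transcripts, at percentiles 13.2 and 14.4 of the length implied by the authors' FPKM, and TFRC and FECH long ones, at percentiles 82.0 and 93.5. The part of transcript length in these gaps was not tested.

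**Figure D3:**
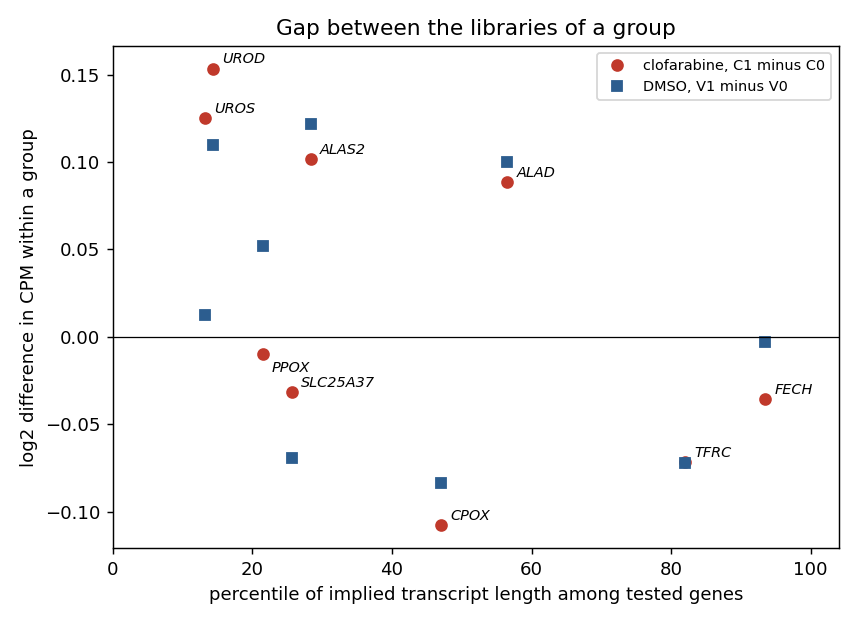
Log2 difference in CPM between the libraries of a group (C1 minus C0, red; V1 minus V0, blue) for the 9 genes against the percentile of implied transcript length among tested genes. The largest gap in clofarabine, 0.15 for UROD, exceeds every change between groups among the 9.

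ALAS1, the isoform of 5-aminolevulinate synthase found in all tissues, had 28.8 and 25.9 FPKM in C0 and C1, against 23.3 and 22.7 FPKM in V0 and V1. Both clofarabine libraries lay above both DMSO libraries, with a fold change of 1.19 (95% interval 1.05 to 1.35, log2 fold change 0.25), which was not called (unadjusted p = 0.00891 and adjusted p = 0.158 by edgeR).

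In all, 58 of 60 further haem and iron genes in 7 lists could be tested, among them ALAS1. By edgeR 3 of the 58 fell and none rose, beside 1.03% lower and 1.54% higher over all tested genes. An unadjusted p under 0.05 was found in 10 of the 58, beside 14.2% of all tested genes. DESeq2 called 1 as lower and limma-voom 3, and neither called any as higher. The median log2 fold change over the 58 was −0.027. All the calls lay among 7 transcription factors of haem genes, where 3 fell, 4 were not called and all 7 values were negative. Their median was −0.19, while over all tested genes 49.4% of values were negative and the median was 0.0020. The lists were chosen with earlier results of these data known, so the place of the calls is no independent support.

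NFE2, the erythroid subunit of the NF-E2 factor, had 108 and 113 FPKM in C0 and C1, against 141 and 144 FPKM in V0 and V1 (log2 fold change −0.37, edgeR adjusted p = 0.00196). ZFPM1, which encodes the GATA1 cofactor FOG1, had 5.00 and 4.87 FPKM in C0 and C1, against 7.19 and 6.99 FPKM in V0 and V1 (log2 fold change −0.52, edgeR adjusted p = 0.0365). GATA1, named after its values were seen, had 137 and 149.7 FPKM in C0 and C1, against 174 and 169 FPKM in V0 and V1 (log2 fold change −0.25, edgeR adjusted p = 0.0445). The clofarabine libraries lay under the DMSO libraries in all 3, as they did in 21.3% of all tested genes on the CPM scale. The 3 are genes called lower on these same libraries, so this adds no support. GATA1 was no longer called when C0 (edgeR adjusted p = 0.112), V0 (0.263) or V1 (0.254) was left out, nor ZFPM1 without C1 (0.0898), V0 (0.0881) or V1 (0.144), with log2 fold changes between −0.19 and −0.28 for GATA1 and between −0.50 and −0.55 for ZFPM1. The 95% interval of the GATA1 change, −0.39 to −0.11, overlaps that of ALAS2, −0.23 to 0.054, and the difference between the 2 genes was not tested.

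**Figure D4:**
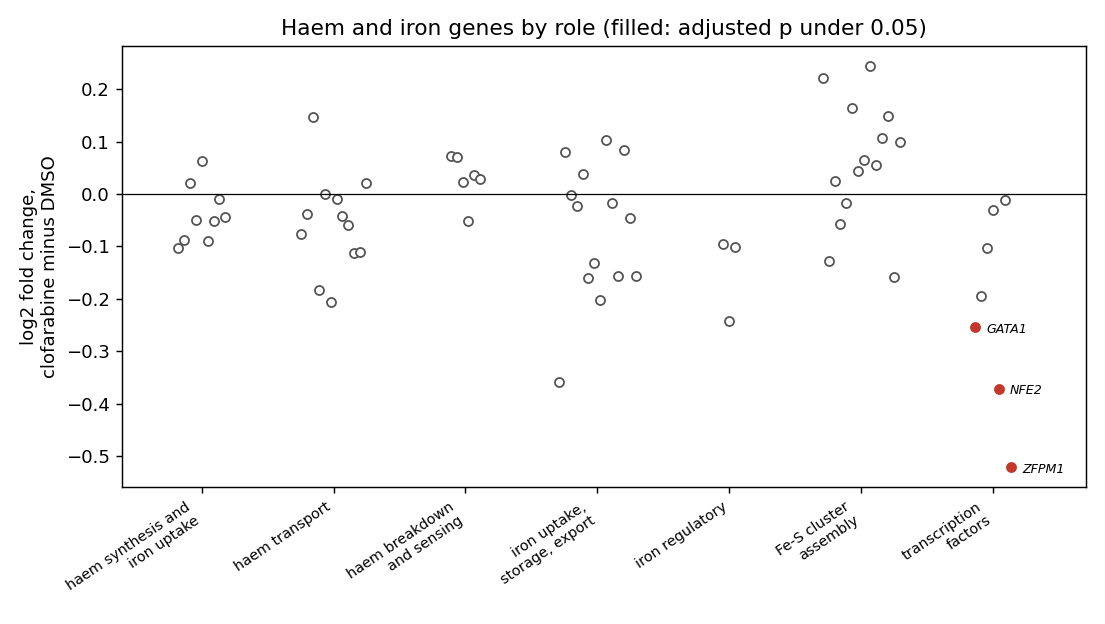
Log2 fold change (clofarabine minus DMSO) of each tested gene, the 9 haem synthesis and iron uptake genes at the left and 6 lists of further haem and iron genes to their right; filled points have an edgeR adjusted p under 0.05. The calls, NFE2, ZFPM1 and GATA1, all lie among the transcription factors.

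In the 6 other lists edgeR called none. Among 14 genes of iron uptake, storage and export, 3 had an unadjusted p under 0.05, beside 14.2% of all tested genes. A negative value was found in 10 of the 14, beside 49.4% of all tested genes (median −0.035, and −0.096 without V0). The smallest p was that of PCBP1, a chaperone that delivers iron to ferritin, at 252 and 249.7 FPKM in C0 and C1, against 275 and 285 FPKM in V0 and V1 (log2 fold change −0.16, edgeR adjusted p = 0.246). The ferritin subunits FTH1 and FTL, which store iron and carry the same hairpin pattern in their 5′ UTRs, had log2 fold changes of −0.0015 and −0.023 (SE 0.075 and 0.083). SLC40A1, the iron exporter ferroportin and the other list gene with that pattern, was at −0.16 with an SE of 0.092. Ferritin genes have processed pseudogenes, so their share of fragments may be uncertain.

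Among 3 iron regulatory genes all values were negative (median −0.10, none with an unadjusted p under 0.05), as were 49.4% of those of all tested genes. FBXL5, which targets IRP2 for degradation, was at −0.24 (SE 0.14, edgeR adjusted p = 0.458). The value was −0.41 without C0 and −0.068 without C1. Among 14 genes of iron-sulphur cluster assembly 10 were positive and 4 negative (median 0.060), beside 49.4% negative over all tested genes. In this list 2 had an unadjusted p under 0.05, beside 14.2% of all tested genes. BOLA3, a cluster transfer factor, had the smallest p, at 269.5 and 267 FPKM in C0 and C1, against 240.3 and 223 FPKM in V0 and V1 (log2 fold change 0.22, edgeR adjusted p = 0.164). It is among the shortest transcripts, at percentile 0.969 of implied length, and with the length trend taken out the change was 0.073.

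Of 13 genes of haem and porphyrin transport 12 could be tested (median −0.050, and −0.020 without V1, none with an unadjusted p under 0.05), with FLVCR1, a haem exporter, at −0.21 on the log2 scale (SE 0.11, edgeR adjusted p = 0.398). It was −0.059 without C1 and −0.35 without C0. Of 7 genes of haem breakdown and sensing 6 could be tested (median 0.032, none with an unadjusted p under 0.05), with BACH1, a haem-sensing repressor, at 0.073 (SE 0.078, edgeR adjusted p = 0.751). The median of this list was −0.021 without V0, −0.0034 without C1, 0.10 without V1, 0.050 without C0 and −0.0050 with library sizes alone, so its sign is not settled. HMOX1, the inducible haem oxygenase, had 0 fragments in C0, C1 and V0 and 2 in V1, and a change in it was not detectable at this depth.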

How the data were processed

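RNA-seq of 2 clofarabine and 2 DMSO samples of K562 cells was analysed from 1 deposited table. Per the labels' protocols, total RNA was made into directional NEBNext libraries. Cutadapt 1.5, TopHat2 2.0.13, Cuffdiff 2.2.1 and the build hg19 are named in the submitters' processing notes. No source here names the gene annotation or the strand setting. Per the file headers, the deposited table gives estimated counts of fragments per gene and library, the authors' FPKM, and scaled fragments, a signal that the authors made by 1 factor per library. A failed status was given for 6 genes, none of them among the 9.

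Counts were rounded, which changed 431 to 483 genes per library, and 11761 of 23615 genes passed filterByExpr (minimum count 10). Libraries were scaled by TMM and compared in edgeR 4.0.16 (R 4.3.3) by its quasi-likelihood test on group alone, with Benjamini-Hochberg adjustment over all tested genes; a call is an adjusted p under 0.05. The common biological coefficient of variation was 6.01%. SE is the log2 fold change over the square root of F, and 95% intervals use the test's total degrees of freedom (20.7 to 21.7). The same code was tested on simulated data.

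The libraries of a group differed by more than sampling noise (chi-square of 6.55 per degree of freedom between C0 and C1, and of 2.73 between V0 and V1), so none were combined. Which library is replicate 1 of the labels is not given. The 9 genes and the lists were chosen with earlier results of these data known. The text names the 9 genes and ALAS1, and from each list up to 2 called genes per direction by smallest p, or the gene of smallest p. Some genes that this rule or the marker list names are not reported here. FTH1, FTL and SLC40A1 are named for their hairpin pattern, HMOX1 for its counts, and APEX2 and B4GALT3 for their overlap. Implied transcript length is the ratio of scaled fragments to FPKM. The alternatives were other scalings and filters, DESeq2 1.42.0, limma-voom and limma-trend (limma 3.58.1) on log2(FPKM + 1) and log2(FPKM + 0.1), the scaled fragments, each library left out, a replicate block, removal of a length trend (loess, span 0.3), thinning to 8370550 fragments, and thresholds of 0.01 and 0.1.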

Additional observations from a re-analysis of the deposited data

How the results depend on the processing

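None of the 9 genes was called under any of the 19 alternatives. ALAS2, ALAD, PPOX, FECH, SLC25A37 and TFRC kept the sign of their log2 fold change under all 17 alternatives that refit the data. Leaving out each library in turn gave −0.12 to 0.013 for UROS, −0.092 to 0.065 for UROD and −0.030 to 0.074 for CPOX, which was −0.015 with library sizes alone. The sign turned without C0 in all 3 and without V1 in UROD and CPOX, and the cause was not tested. Among the 58 list genes, 3 were called lower, against 1 with DESeq2, 0 on the log2(FPKM + 1) scale and 1 on the log2(FPKM + 0.1) scale. The number called lower was 1 at a threshold of 0.01, 2 with upper-quartile factors, 4 with the replicate block and 4 with the length trend removed. With the replicate block 2 were called higher, ALAS1 (adjusted p = 0.0414) and BOLA3 (adjusted p = 0.0374), and the call of NFE2 was lost on the log2(FPKM + 1) scale (adjusted p = 0.0504). That of GATA1 was lost under 7 and that of ZFPM1 under 6 of 17 alternatives. Over all genes 302 were called, against 478 with no filter, 168 with DESeq2, 56 and 72 on the log2(FPKM + 1) and log2(FPKM + 0.1) scales, 796 with the replicate block, 486 with the length trend removed, 128 and 466 at thresholds of 0.01 and 0.1, and 130 (without V1) to 636 (without C0) with a library left out. Rises made up 59.9% of the calls, against 45.9% with library sizes alone, where the median of all genes was −0.035, 33.9% and 37.5% on the log2(FPKM + 1) and log2(FPKM + 0.1) scales, 45.3% at a threshold of 0.01, and 43.8% (without V1) to 71.4% (without C0) with a library left out. With library sizes alone the median was 0.025 for the iron-sulphur list, −0.071 for iron uptake, storage and export, and −0.089 for transport. It was −0.067 for iron uptake, storage and export and 0.0060 for haem breakdown with the length trend removed, and −0.013 for transport after thinning. Deviations of same-numbered libraries had a correlation of −0.0038 over genes. That value weighs genes of low and high counts alike, so it cannot decide whether the numbers pair the samples. With a library left out, the lone sample of its group is taken to vary as the other group does. With 2 libraries per group, changes smaller than the intervals given could not be detected.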

Other observations

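The isoforms of 5-aminolevulinate synthase were set against each other after their values were seen. ALAS2 stood 5.36 and 6.34 times above ALAS1 in FPKM in C0 and C1, against 6.98 and 7.77 times in V0 and V1. The ratio was lower in both clofarabine libraries than in both DMSO libraries. It is a description with no test, and neither isoform was called.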
